A study of Homo sapiens with 16 samples.

Results

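The genes described here are the ZNF genes that Jurkat cells clearly express, taken as every gene whose symbol is ZNF followed by a number and that averaged at least 20 CPM over the 8 untreated libraries. CPM is a read count scaled to the library's total. The choice of genes used the raw sum of reads in genes as that total, and levels of named genes given later carry TMM scaling, which corrects the total for differences in composition. Of 557 ZNF symbols among the 60662 gene identifiers of the tables, 512 had a read in at least 1 library and 215 met the level. At the edge, ZNF320 at 20.1, ZNF91 at 20.2 and ZNF747 at 20.3 CPM were taken, and ZNF599 at 19.6, ZNF25 at 19.2 and ZNF280B at 19.1 CPM were left out. Because control levels chose the genes, those levels are a description, and changes are read against the 8375 genes that reached the same control level.

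RNA-seq was done on Jurkat E6-1, an established human T cell line that the labels describe as lymphoma, with a wild-type genotype. Untreated cells at 0 h gave 8 control libraries. Another 8 libraries came from cells moved to phosphate-buffered saline with 10 µM hydrogen peroxide and taken after 4 h. The labels number these as biological replicates, without saying whether they came from separate cultures, so p-values measure the spread between these libraries. Names of the deposited tables divide each group into 2 batches of 4 libraries, replicates 1 to 4 and 5 to 8, with no statement of what a batch is in the sources used here. Control cells kept in saline for the same time were not analysed here, so peroxide, saline and time cannot be told apart.

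ZNF genes code for proteins with zinc fingers, short folds in which a pair of cysteines and a pair of histidines hold a zinc ion, and arrays of such fingers usually read DNA sequence. Many carry a KRAB box, which recruits the corepressor TRIM28 and with it enzymes that place repressive histone marks, often at transposable elements; others carry a SCAN domain, which pairs such proteins with each other, and some act as activators or bind RNA. Messenger RNAs of this family are known for short half-lives, and many of the genes lie in clusters on chromosome 19.

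The repeated unit that defines the family can be seen in the coding sequence of 1 finger each from ZNF92, which had the largest rise, and from ZNF691 and ZNF594, which had the largest falls. Each run holds 27 codons, with the codons of the zinc-binding cysteines and histidines in capitals and the linker to the next finger at its end. They were read from GENCODE 29 transcripts, at codons 203, 117 and 241 of the longest reading frame.
ZNF92: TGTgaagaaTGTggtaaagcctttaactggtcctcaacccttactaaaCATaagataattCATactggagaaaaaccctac
ZNF691: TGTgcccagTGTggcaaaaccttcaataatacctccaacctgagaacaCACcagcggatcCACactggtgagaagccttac
ZNF594: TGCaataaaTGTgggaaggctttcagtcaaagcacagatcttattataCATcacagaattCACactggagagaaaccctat
Pairs of these runs were identical at 50 to 54 of 81 bases, the most in ZNF92 and ZNF594, 1 of which rose while the other fell. Similar fingers can share short stretches between genes, and reads that fit several genes equally well are not counted for any of them. Over whole transcripts, 14 of the 215 genes shared at least 20% of their 50-base stretches with another gene, and ZNF320 (99.5%) and ZNF747 (89.6%) shared most, so their levels are uncertain.

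Libraries held 5556553 to 15720881 reads in genes. Reads not aligned uniquely were 30.2% to 47.2% of the counted reads, most in control 1 and peroxide 5. All 13 T cell markers checked, such as CD3D and LCK, averaged at least 1 CPM, with a summed level of 3625 to 4460 CPM in controls and 3503 to 4301 CPM after peroxide. A list of 6 myeloid markers summed to 0.131 to 1.18 CPM in controls and 4.45 to 13.3 CPM after peroxide, with LYZ and FCGR3A under 0.1 CPM on average, and the part of such a shift in the results was not tested. B cell, erythroid, fibroblast and epithelial lists stayed at or under 57.4 CPM in sum. In bulk RNA, fewer cells with a transcript and less of it per cell cannot be told apart.

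The 215 genes took up 1.00% to 1.33% of the reads in genes, or 58828 to 195816 reads per library. ZNF664 had one of the highest levels, with a lowest, median and highest control level of 276, 298 and 373 CPM. ZNF207, which loads the checkpoint protein BUB3 onto kinetochores, stood at 250.3, 299 and 335 CPM in the same order. ZNF106, ZNF512B and ZNF146 followed, with control medians of 203, 193 and 189.6 CPM. Per kilobase of exon, ZNF664 (48.3 CPM per kb), ZNF146 (45.8) and ZNF32 (38.5) were highest, the median gene stood at 7.12, and ZNF26, with 20.9 kb of annotated exon, was lowest at 1.15 CPM per kb.

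After peroxide in saline, 47 of the 215 ZNF genes were higher, 73 were lower and 95 did not pass the test. The test was edgeR's quasi-likelihood test with batch as a term, at a Benjamini-Hochberg adjusted p under 0.05 over all 14092 genes tested, and all 215 genes passed its filter on low counts. As shares, 21.9% rose and 34.0% fell. Among all genes tested 24.1% were higher and 24.3% lower, and among genes with the same control level 21.4% were higher and 29.5% lower. The share that rose was thus near its background, and the share that fell was 34.0% against 29.5%. The median log2 fold change was -0.07 for the ZNF genes, with quartiles at -0.31 and 0.16, and -0.04 for genes of the same control level.

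Changes were small: 0 of the 215 genes reached 2-fold in either direction, where 1.66% of genes with the same control level rose and 0.299% fell by that much. Levels in the 8 peroxide libraries lay wholly above the controls for 5 ZNF genes and wholly below them for 24. At the same control level, 4.35% of genes lay wholly above and 6.01% wholly below, against 2.33% and 11.2% of the ZNF genes. Of the 120 genes called, 118 had the same sign in both batches, but the calls used both batches together, which favours such agreement. Over all 215 genes the signs agreed for 150 (69.8%), beside 72.9% of genes with the same control level. With total counts in place of TMM scaling, the split was 32 higher and 90 lower (14.9% and 41.9%), where 16.5% and 38.6% of genes with the same control level were higher and lower. That scaling moved the median of those genes from -0.04 to -0.10. Without the low-count filter the split was 37 and 89 (17.2% and 41.4%), where 16.4% and 34.7% of them were called.

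**Figure D1:**
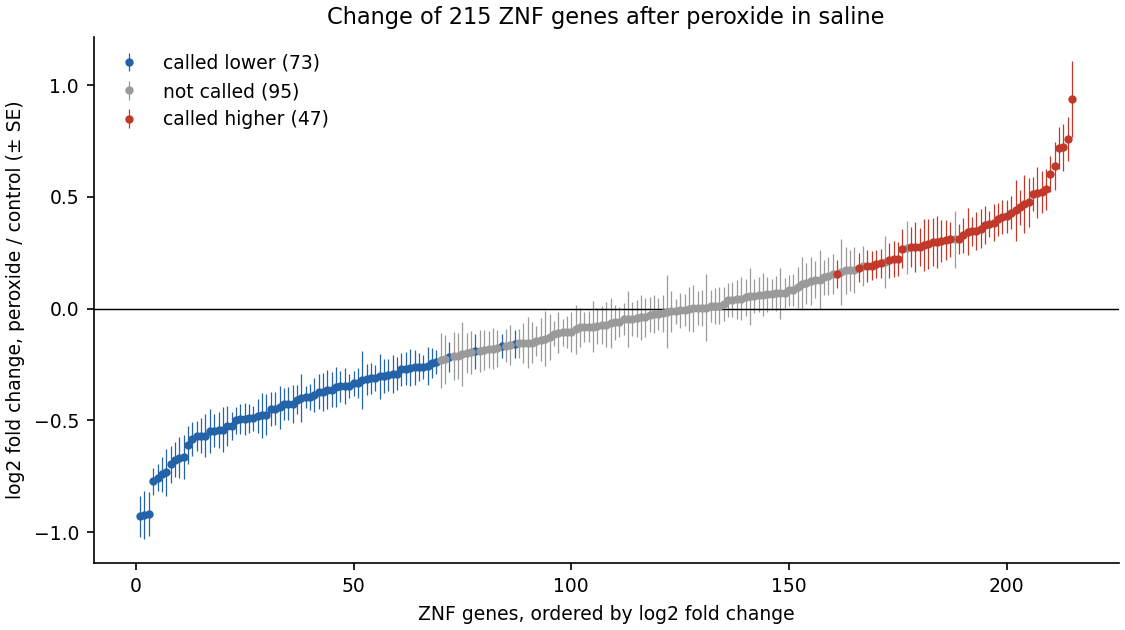
Log2 fold change of each of the 215 ZNF genes between peroxide and control libraries (vertical axis, points with standard error bars), ordered from the largest fall to the largest rise (horizontal axis). The 73 genes called lower and 47 called higher reach -0.93 and 0.94 at the ends. The 95 genes not called lie around the middle and mix with called genes. The smallest change called was 0.15 in size and the largest not called 0.31.

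ZNF genes that rose were led by ZNF92, a KRAB gene on chromosome 7 (ENSG00000146757.13). Its lowest, median and highest level was 28.4, 42.7 and 58.5 CPM in controls and 57.1, 67.8 and 138 CPM after peroxide. The groups overlapped by a narrow margin, and the 4 peroxide libraries of batch 1 spread widest. The log2 fold change was 0.94 ± 0.17 (SE; edgeR adjusted p = 0.000108). ZNF26, a KRAB gene on chromosome 12 (ENSG00000198393.8), went from 18.9, 25.6 and 29.5 CPM to 32.4, 41.0 and 50.5 CPM. Every peroxide library lay above every control, and the log2 fold change was 0.76 ± 0.10 (edgeR adjusted p = 1.43e-06).

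ZNF574 and ZNF335, both with over 10 fingers and no KRAB box, also had every peroxide library above every control. ZNF335 on chromosome 20 (ENSG00000198026.8), part of a complex that methylates histone H3 and a factor needed for T cell maturation, went from 66.9, 80.6 and 96.5 CPM to 109.9, 126 and 172 CPM. ZNF574 on chromosome 19 (ENSG00000105732.13) went from 26.2, 34.3 and 38.0 CPM to 38.2, 54.6 and 70.1 CPM. Their log2 fold changes were both 0.72, with SE 0.10 and 0.11 (edgeR adjusted p = 2.29e-06 and 7.74e-06). In ZNF335 the batch 1 peroxide libraries were highest, and in ZNF574 those of batch 2.

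The other 8 of the 12 largest rises lay between 0.47 and 0.64 on the log2 scale, and in each the groups overlapped. ZNF721, ZNF570, ZNF12 and ZNF566 are KRAB genes, at 0.64, 0.53, 0.52 and 0.47. ZNF830, a factor of pre-mRNA splicing and the DNA damage response, rose by 0.60 ± 0.08 from a median of 34.9 to 53.3 CPM. ZNF654 rose by 0.52 and ZNF367 by 0.48. ZNF24, a SCAN protein known to repress VEGFA, was the most abundant of the 12, with a median of 159 CPM in controls and 214 CPM after peroxide (0.51 ± 0.08; edgeR adjusted p = 1.09e-05). Of the 12, 10 had a transcript GC content under 44%, and ZNF574 and ZNF335 stood at 60.9% and 61.1%. The median over all 215 genes was 44.3%.

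Groups did not overlap in 11 of the 12 largest falls, and in 3 of the 12 largest rises. Both lists were chosen by size of change in these same libraries, and no such counts are given for the largest changes of other genes. Among the falls, ZNF691 on chromosome 1 (ENSG00000164011.18) went from a lowest, median and highest level of 18.2, 19.8 and 24.9 CPM to 9.71, 10.4 and 13.4 CPM, a log2 fold change of -0.93 ± 0.09 (SE; edgeR adjusted p = 3.09e-08). ZNF594 on chromosome 17 (ENSG00000180626.10) went from 18.7, 30.5 and 34.8 CPM to 12.8, 15.6 and 18.5 CPM, a change of -0.92 ± 0.11. The KRAB gene ZNF780B on chromosome 19 (ENSG00000128000.16) went from 19.8, 28.2 and 37.0 CPM to 13.0, 15.8 and 17.5 CPM, a change of -0.92 ± 0.10. In all 3 genes each peroxide library lay below each control, although the gap was narrow in ZNF594 because control 1 was low.

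ZNF462 and ZNF445 had the smallest p-values of the 12 largest falls. ZNF462 on chromosome 9 (ENSG00000148143.13), a chromatin protein with 34 finger patterns, went from 43.0, 47.6 and 55.5 CPM to 24.2, 29.3 and 30.7 CPM (-0.77 ± 0.06; edgeR adjusted p = 1.17e-09). ZNF445 (ENSG00000185219.17), a KRAB and SCAN protein that guards genomic imprints, went from 142, 157 and 175 CPM to 85.0, 91.0 and 111 CPM (-0.76 ± 0.06; edgeR adjusted p = 1.56e-09). Groups were far apart in both.

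The remaining 7 of the 12 largest falls lay between -0.74 and -0.61. ZNF500 and ZNF197, both with a SCAN domain, changed by -0.74 and -0.70; ZNF197 is known as a partner of the von Hippel-Lindau protein. KRAB genes ZNF561, ZNF248, ZNF584 and ZNF786 changed by -0.68, -0.67, -0.67 and -0.61. ZNF696 changed by -0.73 ± 0.11 and was the only one of the 12 whose groups overlapped, with controls down to 19.8 CPM and peroxide libraries up to 25.2 CPM.

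**Figure D2:**
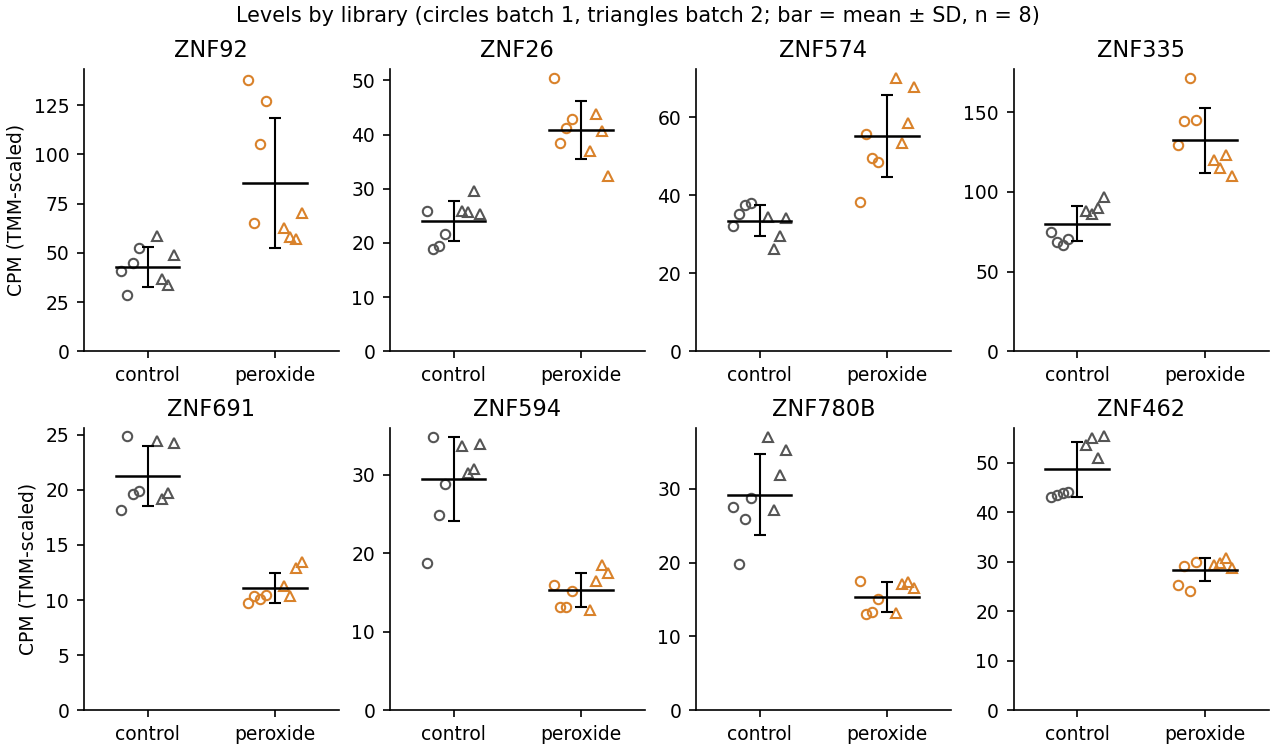
TMM-scaled CPM of 4 ZNF genes that rose (top) and 4 that fell (bottom) in each control and peroxide library, with circles for batch 1, triangles for batch 2 and bars for mean ± SD (n = 8). Groups do not overlap except in ZNF92, where the lowest peroxide library, at 57.1 CPM, lies below the highest control, at 58.5 CPM.

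Grouped by role, the 12 members that act as DNA-binding activators or broad regulators without a KRAB box had 6 higher and 2 lower, with a median log2 fold change of 0.13. Of all genes with the same control level 21.4% were higher and 29.5% lower, with a median of -0.04, and these shares are the background of each role list. Besides ZNF335, ZNF24 and ZNF367, the risers were ZNF143, an activator of many housekeeping and small nuclear RNA promoters, ZNF280C and ZNF281. ZNF143 went from 20.7, 25.3 and 31.0 CPM to 25.8, 31.0 and 43.3 CPM, and its groups overlapped (0.41 ± 0.07 on the log2 scale; edgeR adjusted p = 0.000104). ZNF281 stood at 0.19 ± 0.07 (edgeR adjusted p = 0.0301), and its call was lost without any 1 of 8 libraries (controls 1, 2, 3 or 6, peroxide 1, 3, 5 or 6; edgeR adjusted p 0.0502 to 0.0733). ZNF384 (-0.24) and the SCAN protein ZNF174 (-0.26) fell, and ZNF76, ZNF362, ZNF280D and ZNF148 did not pass the test.

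Among 12 partners of chromatin complexes 2 were higher and 6 lower, with a median of -0.21. Besides ZNF462, ZNF217, a partner of the corepressor CtBP, went from 119.6, 135 and 156 CPM to 85.1, 94.4 and 109.8 CPM, with no overlap (-0.49 ± 0.07; edgeR adjusted p = 5.81e-06). ZNF592 and ZNF687, which form a complex with ZMYND8, changed by -0.40 and -0.26. ZNF609, a partner of the cohesin loader NIPBL, changed by -0.43, and ZNF518B by -0.30. ZNF131, a BTB-domain protein, rose from 83.5, 90.8 and 96.8 CPM to 101, 119 and 164 CPM with no overlap (0.45 ± 0.08; edgeR adjusted p = 6.26e-05). ZNF644, a partner of the methyltransferase EHMT2, stood at 0.28 ± 0.11 (edgeR adjusted p = 0.0442), and its call was lost without any 1 of 11 libraries (controls 1, 2, 3, 4, 6 or 7, peroxide 1, 3, 4, 6 or 7; edgeR adjusted p 0.0538 to 0.101). ZNF518A, ZNF292, ZNF512B and ZNF451, a ligase for SUMO, did not pass the test.

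ZNF proteins that work on RNA or ribosomes had 4 of 10 members higher and 2 lower. ZNF622, a factor that matures the large ribosomal subunit, went from 35.5, 42.1 and 45.8 CPM to 47.1, 57.1 and 66.8 CPM, with no overlap (0.43 ± 0.07; edgeR adjusted p = 5.97e-05). ZNF330, a nucleolar protein, and ZNF277 were higher by 0.20 and 0.22 besides ZNF830. ZNF346, which binds double-stranded RNA, went from 61.2, 66.4 and 73.3 CPM to 42.9, 48.0 and 52.6 CPM, again with no overlap (-0.49 ± 0.06; edgeR adjusted p = 3.66e-07). ZNF106 changed by -0.40. ZNF598, the ubiquitin ligase that marks collided ribosomes, stood at medians of 152 and 143 CPM and did not pass the test (-0.06 ± 0.07), and neither did ZNF207, ZNF638 or ZNF326.

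Of 12 KRAB repressors with studied targets 2 were higher, 2 lower and 8 not called, beside the same background of 21.4% and 29.5%. ZNF445 and ZNF248 fell. ZNF263 stood at 0.19 (edgeR adjusted p = 0.0200), a call that was lost without control 3 or control 4 (edgeR adjusted p 0.0531 to 0.0543). ZNF84 stood at 0.22 (edgeR adjusted p = 0.0284), lost without any 1 of 8 libraries (controls 1, 2, 3, 4 or 6, peroxide 1, 3 or 4; edgeR adjusted p 0.0519 to 0.0744). ZNF91, which silences SVA transposons, stood at -0.23 ± 0.13 with an edgeR adjusted p of 0.131, and ZNF746, a repressor of PPARGC1A, at -0.01 ± 0.06 with 0.881. These role lists were put together with earlier results of these data known, and their counts are descriptions.

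By structure, 115 of the 215 genes had a KRAB box by a sequence pattern in their translated transcripts, 96 coding genes had none, and 4 were pseudogenes or noncoding. Beside the class counts that follow, 21.4% of all genes with the same control level rose and 29.5% fell. Of the KRAB genes 22 rose and 37 fell, with a median log2 fold change of -0.08. Those without a KRAB box had 25 risers and 35 fallers, with a median of -0.05. The pattern misses diverged boxes such as that of ZNF263. A SCAN domain was found in 15 genes, of which 3 rose and 9 fell, with a median of -0.27, and the pattern for it was adjusted after values had been seen. The 74 genes on chromosome 19 had 17 risers and 17 fallers with a median of -0.02. On other chromosomes 30 of 141 rose and 56 fell, with a median of -0.11. By length of the finger array, 21 of 105 genes with at least 10 fingers rose and 34 fell, as did 19 and 31 of 81 with 4 to 9 fingers, and 7 and 7 of 25 with fewer. No test of these class differences was made.

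The size of the change differed by batch. In batch 1 alone 52 ZNF genes were higher and 50 lower with a median log2 fold change of 0.03, where 16.9% and 22.4% of genes with the same control level were called higher and lower. In batch 2 alone 22 were higher and 85 lower with a median of -0.18, where the background was 18.9% and 24.0%. Genes of the same control level had medians of -0.06 and -0.03 in the batches. Calls in both batches were higher for 18 ZNF genes and lower for 43, and 69 were called in neither. At the same control level, 846 of 8375 genes (10.1%) were called higher in both, 1077 (12.9%) lower in both and 41.2% in neither, against 8.37%, 20% and 32.1% of the ZNF genes. ZNF638 and ZNF875, one a partner of a silencing complex and the other a KRAB gene, were called higher in batch 1 and lower in batch 2. Estimates had the same sign in both batches for 150 of the 215 genes (69.8%), and for 72.9% of genes with the same control level.

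A test of the interaction of batch and treatment called 24 ZNF genes, 21 with a lower fold change in batch 2 and 3 with a higher one. Among genes of the same control level 6.87% were called, 3.94% lower and 2.93% higher in batch 2, and 4.88% of all genes tested were called. Leaving out control 1 brought the count to 10 and leaving out peroxide 5 to 9. These 2 libraries had the highest shares of reads without a unique alignment, and a link between the 2 facts was not tested. The count rose to 45 without peroxide 2 and was 16 to 23 without any other single library. No share of other genes is given beside these counts, so a shift of the whole table cannot be told apart from 1 of the ZNF genes. In 14 of the 24 genes the estimates of the batches had opposite signs.

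ZNF548, a KRAB gene on chromosome 19 with 23.6% of its 50-base stretches shared, had the smallest p of the interaction. In batch 1 its levels were 24.9, 22.8, 28.9 and 26.0 CPM in controls 1 to 4 and 56.1, 50.5, 52.1 and 46.5 CPM in peroxide 1 to 4. In batch 2 they were 41.9, 43.7, 37.5 and 37.7 CPM in controls 5 to 8 and 41.9, 39.6, 35.5 and 34.7 CPM in peroxide 5 to 8. The groups were far apart in batch 1 and overlapped in batch 2, with log2 fold changes of 0.99 ± 0.11 and -0.08 ± 0.09 (interaction -1.08 ± 0.13; edgeR adjusted p = 9.73e-05). Fitted over both batches the change was 0.44 ± 0.14.

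ZNF875 controls held 38.0 to 44.0 CPM in batch 1, and the 4 peroxide libraries there lay above them at 46.3 to 53.0 CPM. Batch 2 controls held 36.7 to 41.1 CPM, and peroxide libraries lay below them at 30.1 to 33.8 CPM. ZNF335 was higher in both batches, by 1.07 ± 0.09 in batch 1 and 0.38 ± 0.07 in batch 2. ZNF672 fell in both, by 0.74 and 0.24 on the log2 scale. ZNF638 stood at 0.25 ± 0.08 and -0.33 ± 0.08.

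**Figure D3:**
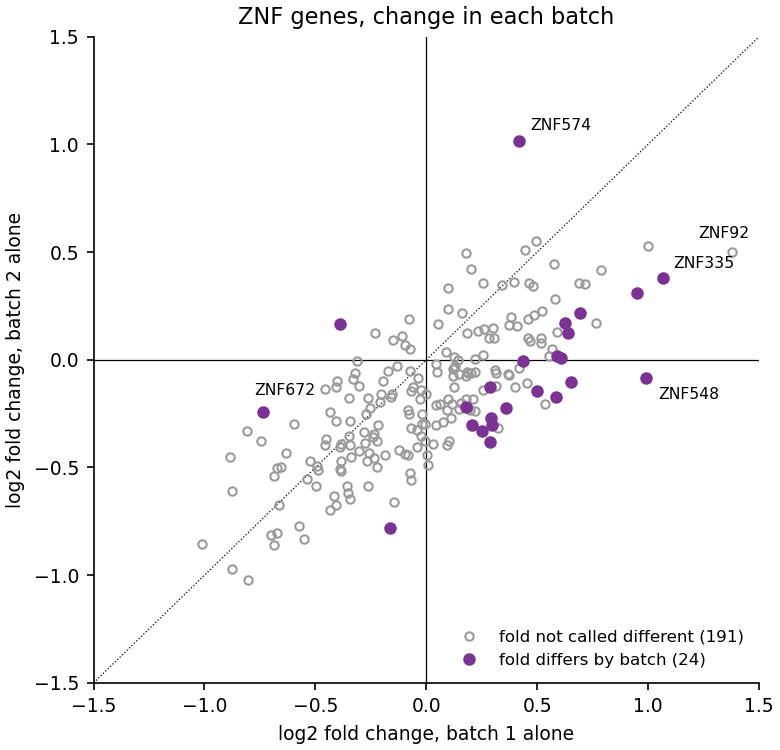
Log2 fold change of each ZNF gene in batch 1 alone (horizontal axis) against batch 2 alone (vertical axis), with the 24 genes whose change differed between batches filled and equal change on the dotted line. Of these, 21 lie below the line, among them ZNF548 at 0.99 and -0.08, and 3 lie above it.

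The batches also differed in controls. The 215 genes took 1.06% to 1.13% of the reads in genes in the controls of batch 1 and 1.25% to 1.33% in those of batch 2, with no overlap. After peroxide the shares were 1.00% to 1.21% and 1.10% to 1.14%. Levels in the 4 controls of batch 2 lay wholly above those of batch 1 for 52 genes and wholly below for 15, or 24.2% and 6.98%, beside 20.2% and 28.8% of genes with the same control level. In peroxide libraries batch 2 lay wholly above batch 1 for 28 genes and wholly below for 48, or 13.0% and 22.3%, beside a background of 13.9% and 20.6%.

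**Figure D4:**
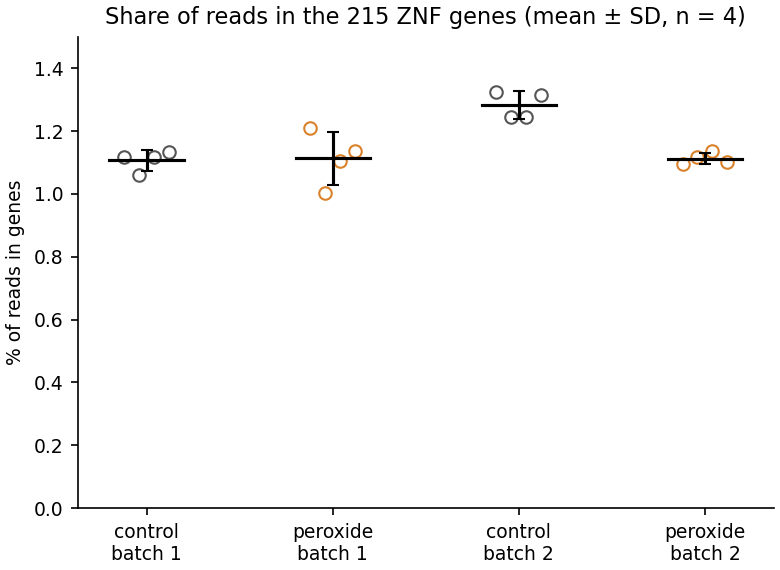
Share of reads in genes taken by the 215 ZNF genes (vertical axis, percent) in each library, by group and batch, with mean ± SD (n = 4). Controls of batch 2, at 1.25% to 1.33%, lie above controls of batch 1, at 1.06% to 1.13%, and peroxide libraries of both batches lie at 1.00% to 1.21%.

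The base composition of transcripts moved with the batch difference. Across the 215 genes, Spearman's rho between transcript GC content and the interaction (change in batch 2 minus change in batch 1) was 0.60, a description over genes that share the same libraries, and across 8374 genes of the same control level it was 0.37. Of the 80 ZNF genes under 42% GC, 24 rose and 12 fell, with medians of 0.19 in batch 1 and -0.14 in batch 2. Of 66 genes at 42% to 50% GC, 10 rose and 30 fell. Of 69 genes at 50% GC or more, 13 rose and 31 fell, with medians of -0.20 and -0.16. As shares, 30%, 15.2% and 18.8% rose in the 3 ranges and 15%, 45.5% and 44.9% fell. Among all genes of the same control level, 23.5%, 23.2% and 19% rose and 23.1%, 32.1% and 31.6% fell in the same ranges. Half-life was not measured. With a correction for GC in each library, chosen after the data were seen, 48 ZNF genes were higher and 90 lower (22.3% and 41.9%) with a median of -0.11. The same correction gave 21.8% higher and 36.1% lower among genes of the same control level, with a median of -0.06. The interaction was then called for 28 ZNF genes, 26 of them lower in batch 2 (12.1%) and 2 higher (0.930%), beside 4.90% lower and 4.76% higher among genes of the same control level.

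**Figure D5:**
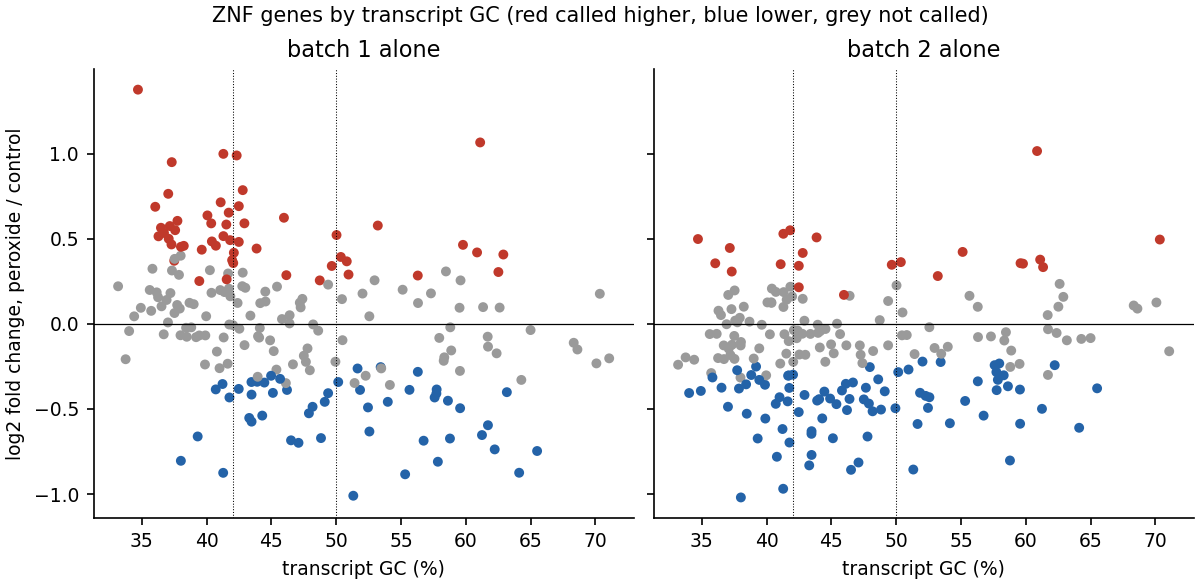
Log2 fold change of each ZNF gene (vertical axis) against the GC content of its transcript in percent (horizontal axis), for batch 1 alone and batch 2 alone, with genes called higher in red, lower in blue and not called in grey. Left of the dotted line at 42% the median is 0.19 in batch 1 and -0.14 in batch 2.

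Start regions were taken from RefSeq (GRCh38.p14) for the 187 ZNF genes with an entry, as the 250 bases before the start, and searched on both strands. The motif CCGGAAGT of ETS factors was in 13.4% of them and in 3.64% of all 27305 start regions. It was in 14.6% of the genes that rose, 16.1% of those that fell and 10.7% of those not called. GGGGCGGGG, a site of SP1, was in 22.5% against 15.4%, and TATAAA in 3.74% against 11.1%. The start regions of the ZNF genes were richer in GC than all start regions, with medians of 62.8% and 58.0%, and the part of this in the shares was not tested. The 27305 start regions were not limited to genes with the same control level. These shares therefore cannot tell a trait of ZNF genes from one of expressed genes. CCAAT was in 42.8% against 33.0%, the AP-1 site TGANTCA in 4.81% against 6.60%, the E-box CACGTG in 5.35% against 6.49% and the palindromic NRF1 site in 2.67% against 1.13%. The YY1 site AAGATGGCG was in 1.07% against 0.641%, and the heat shock element in 0.535% against 0.439%. None of these motifs contains another. The cyclic AMP response element (CRE), TGACGTCA, was in 5 of 41 risers (12.2%), 2 of 62 fallers (3.23%) and 1 of 84 not called (1.19%), and in 1.77% of all start regions. A match is a stretch of letters only, and no test of these shares was made.

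The start regions of the 5 risers with a CRE, in capitals, are shown because they hold the motif that was most unevenly spread between risers and other ZNF genes. They are ZNF330 (chr4:141220645-141220894, plus strand), ZNF121 (chr19:9584505-9584754, minus strand), ZNF266 (chr19:9435574-9435823, minus strand), ZNF143 (chr11:9460762-9461011, plus strand) and ZNF335 (chr20:45972204-45972453, minus strand), each printed 5′ to 3′ along its gene.
ZNF330: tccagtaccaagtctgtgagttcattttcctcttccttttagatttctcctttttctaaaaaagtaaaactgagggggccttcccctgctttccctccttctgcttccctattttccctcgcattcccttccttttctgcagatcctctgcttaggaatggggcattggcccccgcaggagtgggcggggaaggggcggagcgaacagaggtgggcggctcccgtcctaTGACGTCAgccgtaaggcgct
ZNF121: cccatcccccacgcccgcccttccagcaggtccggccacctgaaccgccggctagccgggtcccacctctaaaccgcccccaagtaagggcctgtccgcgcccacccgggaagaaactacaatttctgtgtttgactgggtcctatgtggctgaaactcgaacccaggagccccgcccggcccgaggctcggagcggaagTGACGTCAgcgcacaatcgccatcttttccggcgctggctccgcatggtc
ZNF266: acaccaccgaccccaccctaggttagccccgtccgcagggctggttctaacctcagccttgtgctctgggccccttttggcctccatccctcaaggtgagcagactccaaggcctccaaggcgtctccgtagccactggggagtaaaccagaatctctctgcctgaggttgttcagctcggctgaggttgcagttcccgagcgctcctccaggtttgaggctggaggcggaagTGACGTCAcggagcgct
ZNF143: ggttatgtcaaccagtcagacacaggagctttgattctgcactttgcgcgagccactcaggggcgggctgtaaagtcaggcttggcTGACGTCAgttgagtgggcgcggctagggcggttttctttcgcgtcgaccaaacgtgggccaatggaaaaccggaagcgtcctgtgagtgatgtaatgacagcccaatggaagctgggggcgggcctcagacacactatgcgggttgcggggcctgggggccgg
ZNF335: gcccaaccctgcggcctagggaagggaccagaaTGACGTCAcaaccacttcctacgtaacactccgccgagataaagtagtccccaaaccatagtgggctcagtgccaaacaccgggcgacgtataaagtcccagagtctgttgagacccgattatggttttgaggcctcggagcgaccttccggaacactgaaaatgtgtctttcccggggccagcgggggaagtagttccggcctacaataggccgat
The motif begins 21, 50, 17, 164 and 217 bases before the start in this order, and the log2 fold changes were 0.20, 0.35, 0.40, 0.41 and 0.72. ZNF121 and ZNF266, which lie near each other on chromosome 19, were named after their values were seen. The change of ZNF266 differed by batch, at 0.62 in batch 1 and 0.17 in batch 2 (edgeR interaction, adjusted p = 0.0154), as did that of ZNF335. ZNF121 went from a median of 96.0 to 107 CPM and ZNF266 from 80.0 to 105 CPM. ZNF561 and ZNF200 held the motif and fell, by 0.68 and 0.19 on the log2 scale. ZNF561 and the gene with the motif that was not called also lie on chromosome 19. In these the motif begins 23 and 21 bases before the start.

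Among partners of KRAB proteins, TRIM28, the corepressor that the KRAB box binds, rose from 484 ± 76.8 to 893 ± 107 CPM (SD, n = 8), with no overlap (0.89 ± 0.06 on the log2 scale; edgeR adjusted p = 8.82e-11). Of 30 genes of this machinery 4 were higher and 12 lower, with a median of -0.10. Among genes with a control mean of at least 20 CPM, 21.4% were higher and 29.5% lower. SETDB1, the histone methyltransferase that TRIM28 recruits, stood at 69.9 ± 5.64 and 70.1 ± 7.54 CPM (0.00 ± 0.06). CBX5, a heterochromatin protein, changed by -0.33, and TASOR, MPHOSPH8 and MORC2, of the silencing complex HUSH and its partner, by -0.31 each. CBX3, another heterochromatin protein, rose by 0.24 and PPHLN1, a subunit of HUSH, by 0.22.

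Zinc finger genes outside the rule also moved both ways. Of all genes tested, 24.1% rose and 24.3% fell. Of 174 tested ZNF genes under 20 CPM in controls, out of 342, 31 rose and 55 fell with a median of -0.14. ZSCAN genes had 2 of 12 tested higher and 6 lower, ZKSCAN genes 1 and 3 of 6, and ZFP genes 2 and 9 of 16. The ZFP risers were ZFP36 and ZFP36L1, RNA-binding proteins of another finger type, at 2.41 and 1.27. ZBTB genes, whose proteins join a BTB domain to fingers, had 12 of 39 higher and 12 lower. ZBTB38 (2.05), with a mean of 1.02 CPM in controls, ZBTB5 (1.26), ZBTB10 (1.13) and ZBTB21 (1.05) passed 2-fold, a size that none of the 215 ZNF genes reached. ZBTB38 was named after its values were seen.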

How the data were processed

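RNA-seq was measured in 16 libraries. The submitters' processing notes name hg19 as the build, STAR 2.7.1a and HTSeq 0.6.1. The authors deposited whole-number read counts per gene, not normalized. No source used here gives the counting mode or strand setting, so reads of overlapping and antisense genes cannot be told apart. The identifiers carry versions of a later annotation, so no coordinates are taken from the build of the counts, and those printed are of RefSeq start regions on GRCh38.p14. Symbols matched 60402 of 60662 identifiers (99.6%). The 5 rows naming no gene, 43.5% to 57.6% of counted reads, were left out.

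The ZNF genes and the lists were chosen with earlier results of these data known. Counts were filtered with filterByExpr (14092 genes, 99.6% of reads in genes), scaled with TMM factors and tested in R 4.3.3 with edgeR 4.0.16 (quasi-likelihood test, terms batch and group, Benjamini-Hochberg adjustment), and again with the interaction of batch and group. The scripts were tested on simulated data. SE was the log2 change over the root of the F statistic. Levels are TMM-scaled CPM. Pairs of libraries within a group and batch differed by more than sampling noise (chi-square per degree of freedom 2.96 to 18.2). Alternatives were DESeq2 1.42.0, limma-voom (limma 3.58.1), total counts, no filter, no batch term, a replicate block, each batch alone, other levels for the choice of genes, leaving out libraries, and a GC correction (loess, span 0.4) added after the data were seen.

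Genes were named by this rule: the 12 largest rises and 12 largest falls among called genes with the same sign in both batches, the 5 highest control levels, the 5 smallest interaction p-values, the 3 genes on each side of 20 CPM, members of the 4 role lists and the corepressor list, and up to 4 genes per other zinc finger family by smallest p. Other genes named were chosen after their values were seen. KRAB, SCAN and finger patterns were read from translated GENCODE 29 transcripts, and GC from the same transcripts. A gene of the corepressor list and a sequence are not reported here.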

Additional observations from a re-analysis of the deposited data

Results flagged for a closer look

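In 4 of 150 groups of 8 libraries examined for the named ZNF genes and for the share of reads of all 215, 1 library stood apart from the other 7; chance marks about 1 group in 20. ZNF106 was at 185 CPM in peroxide 1, where the others held 143 to 155 CPM. ZNF500 was at 26.3 CPM in peroxide 8, where the others held 15.4 to 20.5 CPM. ZNF518A was at 88.1 CPM in peroxide 2, where the others held 120.4 to 145 CPM. ZNF589 was at 64.1 CPM in control 2, where the others held 45.2 to 54.1 CPM.

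The change after peroxide differed between the batches, by the edgeR interaction test, in 12 named ZNF genes, of which ZNF266 was chosen after its values were seen. The log2 fold change in batch 2 minus that in batch 1 was -1.08 for ZNF548, -0.69 for ZNF335, -0.65 for ZNF721, -0.59 for ZNF189, -0.59 for ZNF638, -0.56 for ZNF875, -0.48 for ZNF131, -0.46 for ZNF266, -0.45 for ZNF84 and -0.42 for ZNF331. It was 0.59 for ZNF574 and 0.49 for ZNF672. Adjusted p-values of this test (edgeR, Benjamini-Hochberg) ran from 9.73e-05 for ZNF548 to 0.0433 for ZNF574.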

How the results depend on the processing

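Counts of ZNF genes higher and lower stayed within 1.5 times the reported 47 and 73 under DESeq2 (49 and 72), limma-voom (47 and 73), total counts (32 and 90), no filter (37 and 89), no batch term (32 and 66), a GC correction (48 and 90) and without control 1 and peroxide 5 together (41 and 74). Leaving out 1 library at a time gave 37 to 49 higher and 70 to 81 lower. Of genes with the same control level, 22.1% were higher and 30.2% lower under DESeq2, and 21.4% and 30.1% under limma-voom. Those shares were 14.6% and 21.6% without the batch term, and 19.9% and 27.6% without control 1 and peroxide 5 together. With 1 library left out at a time they ran from 19.6% to 21.7% and from 27.6% to 30.9%. In batch 1 alone 52 ZNF genes were higher and 50 lower, beside 16.9% and 22.4% of genes with the same control level. In batch 2 alone 22 were higher and 85 lower, beside 18.9% and 24.0%. Choosing the genes at 40 CPM left 22 higher and 32 lower of 106 genes, with no background share given at that level. Choosing them on the batch 1 controls took 206 genes and gave 23 higher and 80 lower in batch 2. The reverse choice, on the batch 2 controls, took 220 genes, and its counts in batch 1 are not given here. Genes whose change differed by batch numbered 9 to 45 when 1 library was left out, with 10 without control 1, 9 without peroxide 5 and 45 without peroxide 2. DESeq2 gave 29, limma-voom 23, total counts 23, no filter 26 and the GC correction 28. Apart from the GC correction, no share of other genes is given beside these counts, and the cause was not tested.

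Named genes whose sign turned when 1 batch was fitted alone included ZNF548 (-0.084 ± 0.088 in batch 2), ZNF875 (-0.27 ± 0.08 in batch 2) and ZNF638 (0.25 ± 0.08 in batch 1). Others were ZNF84 (-0.0049 ± 0.082), ZNF189 (-0.22 ± 0.09) and ZNF331 (-0.13 ± 0.08), all in batch 2. ZNF548, ZNF84, ZNF189 and ZNF331 were not called in batch 2 alone (edgeR adjusted p = 0.480, 0.970, 0.0548 and 0.208). For these a turned sign is not a called reversal. With a replicate block the counts were 48 and 73, beside 21.2% and 29.5% of genes with the same control level. The replicate numbers gave no clear pairing of the libraries: the correlation of same-numbered deviations ran from -0.22 to 0.30, and 3 of 8 libraries correlated best with their own number. Such correlations cannot show whether same-numbered libraries came from the same culture. Among the 215 genes the smallest log2 change called was 0.15 in size and the largest not called 0.31, with SE from 0.05 to 0.17.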
